A study of Mus musculus with 6 samples.

Results

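The nuclear genes of the mitochondrial respiratory chain and ATP synthase were examined in pineal glands of newborn mice with and without the transcription factor gene Neurod1. Members were the genes whose platform symbol starts with Nduf (complex I), Sdh followed by a, b, c or d (complex II), Uqcr (complex III), Cox followed by a digit (complex IV) or Atp5 (complex V, ATP synthase), with probe sets that name 1 gene, and the probe set with the highest mean over the 6 arrays stood for a gene. This gave 102 of 18193 named genes. Of these, 36 were complex I genes, 4 complex II, 8 complex III, 17 complex IV and 17 complex V genes, and 20 were assembly factors, which build a complex without being part of it. The filter on dim probe sets, which left out the 40% of probe sets of lowest mean, was passed by 97 members. Cox4i2, Cox7b2, Cox8b, Ndufa4l2 and Ndufb4 lay below it.

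Complexes I and II pass electrons from NADH and succinate to ubiquinone, complex III passes them to cytochrome c, and complex IV passes them to oxygen. Complexes I, III and IV pump protons across the inner membrane, and complex V uses the proton gradient to make ATP. The cofactors and the catalytic sites are carried by some of the core subunits, and many small accessory subunits surround the core. Some complex IV subunits have isoform genes for muscle or testis. The mitochondrial genome encodes further core subunits, which were not analysed here.

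The mice were of strain 129, lived under 12 h of light and 12 h of dark, and were killed by day at postnatal day 0. There were 3 wildtype pools and 3 pools homozygous for the Neurod1 knockout, each of 3 glands and run on 1 Affymetrix array after 1 round of RNA amplification. Which stretch of Neurod1 had been removed, and whether littermates were used, is not in the labels. They give pools of the same number a shared date. Signals are linear fluorescence intensities that the authors had scaled per array. Log2 values are log2(signal + 38.6), differences are knockout minus wildtype, and standard errors (SE) come from limma.

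Neurod1 had signals of 9027, 9301 and 7519 in wildtype pools 1, 2 and 3, and 390.2, 524 and 122 in knockout pools 1, 2 and 3, so the targeted gene followed the labels, with a log2 difference of −4.67 (SE 0.45) and a limma adjusted p of 0.0362. That p was 0.0985 to 0.621 when knockout pool 1 or any 1 wildtype pool was left out. All 12 pineal markers fixed for a check of the tissue, among them Tph1, Aanat and Crx, passed the filter, and their summed signal ran from 38216 to 58364 in wildtype and from 26294 to 45769.8 in knockout. Transcripts of other tissues varied between single pools. The summed signal of 7 choroid plexus markers ran from 44007 to 96396 in 4 pools, highest in knockout pool 1, with wildtype pool 1 at only 5067 and knockout pool 3 at 3861. Ttr made up most of the sum in those 4 pools, at 87464 in knockout pool 1 and 38903 in wildtype pool 2. Single markers differed, and 3 of the 7 were highest in knockout pool 1. Clic6 had 2084 there and 10082 in knockout pool 2, and Otx2os1 had 2002 in wildtype pool 1 and 1145 in knockout pool 2. The summed signal of 12 male germ cell markers stood out in both pools numbered 2, at 4849 for wildtype and 31377 for knockout, with 522 to 1178 in the other 4 pools. Crisp2 alone had 1700 of this in wildtype pool 2 and 17677 in knockout pool 2.

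Across the respiratory chain, knockout pool 1 stood high, while knockout pools 2 and 3 both lay below all wildtype pools in 50 of 97 members (15.3% of all genes tested). Wildtype pools 1 and 2 were both above knockout pools 2 and 3 for 79 members, against 28.4% of all genes. That count leaves out wildtype pool 3 and knockout pool 1, the lowest wildtype and the highest knockout pool by the members' median. The count of 50 members leaves out knockout pool 1 as well. Over all 6 pools, 2 members had every knockout signal below every wildtype signal, against 4.33% of all genes. Relative to each gene's mean over the 6 arrays, the median over 97 members was 0.14, 0.14 and −0.28 on the log2 scale in wildtype pools 1, 2 and 3. In knockout pools 1, 2 and 3 it was 1.14, −0.36 and −0.75. The same median over all 12797 genes tested lay between −0.07 and 0.17. Knockout pool 1 had the highest of the 6 signals for 78 of 97 members, against 32.6% of all genes tested. Knockout pool 3 had the lowest for 67 members, against 25.7% of all genes. The peak in knockout pool 1 was not limited to the members. That pool was the highest for 40 of 44 cytosolic ribosome genes, with a median of 1.16. The same held for 60 of 76 mitochondrial ribosome genes, with a median of 0.74. In pooled whole glands, fewer cells of a type and less RNA per cell cannot be told apart. The summed signal of 8 macrophage markers, of which 7 passed the filter, was 14926 in knockout pool 1 and 8285 to 12522 in the other pools. Of these 8 markers 6 were highest in knockout pool 1, and Cd163 and Mrc1 were not. The choroid plexus markers also had their highest summed signal in knockout pool 1, 96396. Among the knockout pools the 12 pineal markers followed the same order, with sums of 45769.8, 30776 and 26294 in pools 1, 2 and 3. Of these 12 markers 8 were highest in pool 1 among the knockout pools, and 1 among all 6 pools. The part of any of these sets of markers in the members' values was not tested.

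**Figure D1:**
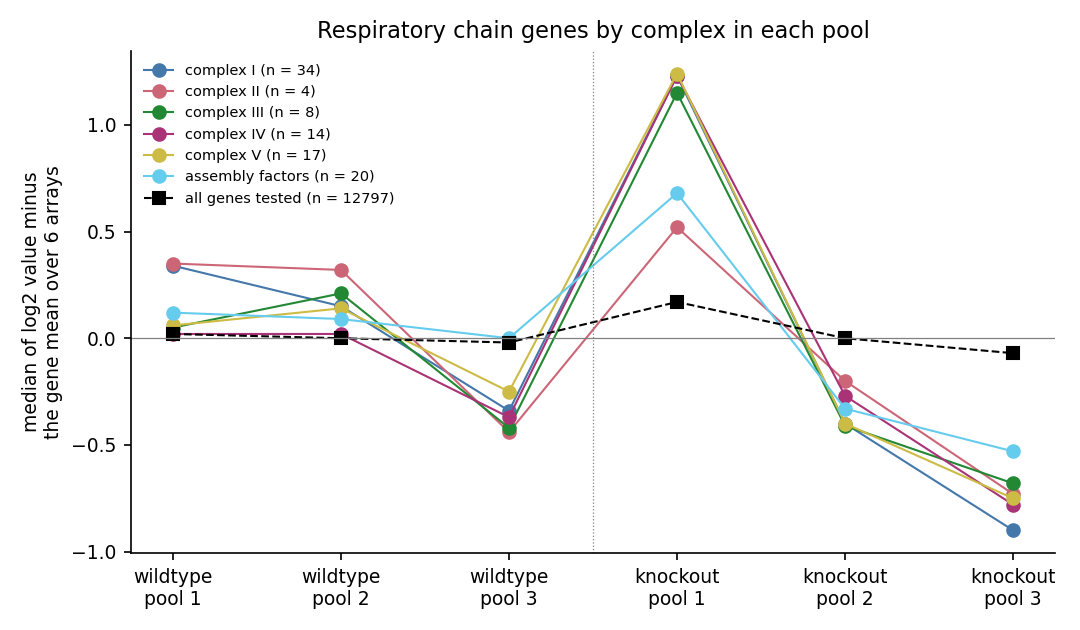
Median log2 value of the genes of each complex, and of the assembly factors, relative to each gene's mean over 6 arrays (y axis), in each of the 6 pools (x axis), with all 12797 genes tested as black squares. All 6 groups of members peak in knockout pool 1, between 0.52 for complex II and 1.24 for complex V, and are lowest in knockout pool 3.

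None of the 97 members passed the threshold of a Benjamini-Hochberg adjusted p under 0.05 in limma (4 residual degrees of freedom). Over all genes tested 0.00781% were called lower, which is Neurod1 alone, and 0.0% higher. An unadjusted p under 0.05 was found for 2 members, against 3.34% of all genes. They were Cox8c, with a higher mean (1.98% of all genes), and Ndufaf4, with a lower one (1.37%). The smallest adjusted p of a member was 0.998. The mean was higher in knockout for 47 members and lower for 50 (46.8% of all genes were lower), and the median log2 difference was −0.02, beside 0.03 over all genes tested.

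That near-zero median joined pools that differed in opposite directions. Within pool number 1 the knockout pool was higher for 87 of 97 members, with a median difference of 0.97. Within number 2 it was lower for 92 members, with a median of −0.53, and within number 3 for 86, with a median of −0.47. Over all genes tested the 3 medians were 0.11, 0.00 and −0.06. When 1 knockout pool was left out, the median over members became −0.54 (pool 1 out), 0.19 (pool 2 out) or 0.36 (pool 3 out). Leaving out wildtype pools 1, 2 or 3 gave 0.06, 0.04 or −0.17.

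In knockout pool 1 the subunits set apart as core in complexes I, III and V had a lower median than the other subunits. In complexes I, III and V, the 12 tested core subunits had a median of 0.58 in this pool relative to the 6 arrays, and the 47 other subunits had 1.34. A value over 1 was reached by 3 of the 12 core subunits and by 37 of the 47 others, against 5.53% of all genes tested. The core set held 6 subunits of complex I, Uqcrc1, Uqcrc2 and Uqcrfs1 of complex III, and Atp5a1, Atp5b and Atp5c1 of complex V. It was not limited to subunits with cofactors or catalytic sites, and it lacked Cyc1 of complex III, which the symbol rule did not take. For complexes III and V this division was made after the values had been seen, and it was not tested. Among the 1280 tested genes of highest mean level, the median in knockout pool 1 was −0.12, and that of the 33 members among them was 1.25.

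**Figure D2:**
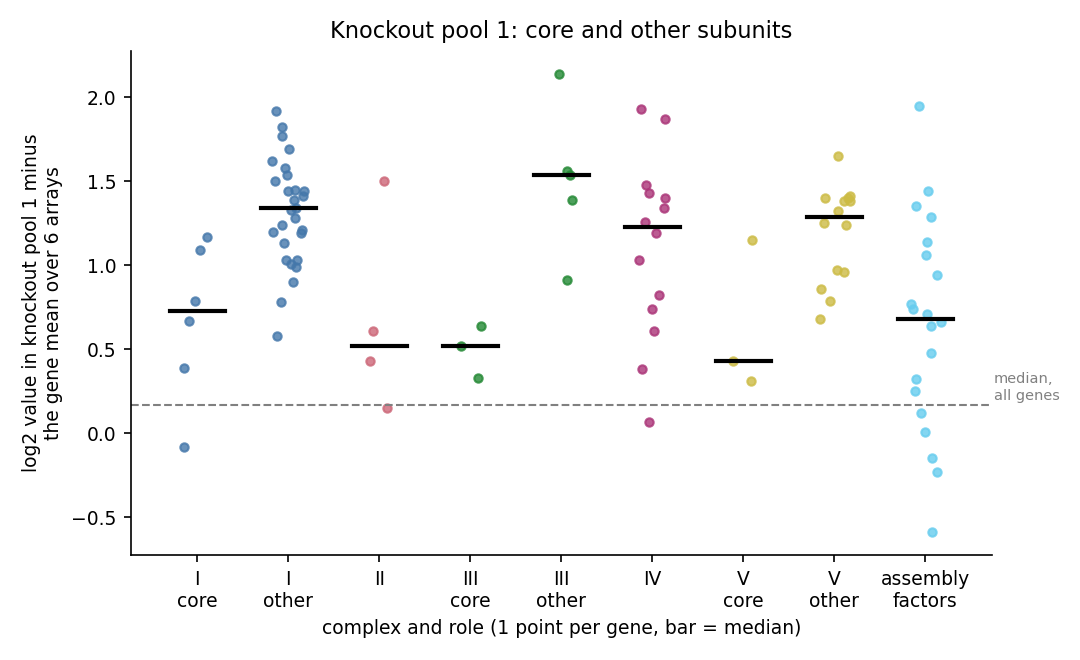
Log2 value in knockout pool 1 minus the gene mean over 6 arrays (y axis), 1 point for each of 97 members, by complex and, for complexes I, III and V, by core and other subunits (x axis). Black bars are medians and the dashed line is the median of all genes tested, 0.17. Medians are 0.73, 0.52 and 0.43 for the core subunits and 1.34, 1.54 and 1.29 for the others.

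Complex I genes showed both ends of this range. Ndufs1, which encodes the largest iron-sulfur subunit of the NADH-oxidising arm, had signals of 2507, 2313 and 1623 in wildtype pools 1, 2 and 3, and 1629, 1494 and 1148 in knockout pools 1, 2 and 3. Knockout pool 1 was not high here, and it lay just above the lowest wildtype pool, so the groups overlapped. The log2 difference was −0.57 (SE 0.31) and the unadjusted limma p was 0.0943. With the pool number as a block the unadjusted p was 0.0343 and the limma adjusted p 0.768. Ndufs1 was then the third member with an unadjusted p under 0.05, beside 6.24% of all genes tested, and the differences within numbers 1, 2 and 3 were −0.61, −0.62 and −0.48.

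Ndufa13, an accessory subunit of the membrane arm, had signals of 6785, 5753 and 5036 in wildtype pools 1, 2 and 3, and 21474, 3051 and 2479 in knockout pools 1, 2 and 3. Its knockout pools were at once the highest and the lowest of the 6, and the log2 difference of −0.09 (SE 0.72) joined 1.66, −0.91 and −1.01 within numbers 1, 2 and 3. The accessory subunit gene Ndufb5 had 5035, 3951 and 4197 in the wildtype pools and 8694, 2094 and 1901 in the knockout pools, again with knockout pool 1 above and the other knockout pools below every wildtype pool, and a log2 difference of −0.42 (SE 0.55). Among the other core subunits, Ndufv1, which encodes the subunit that binds NADH, had 3015, 2043 and 1113 in the wildtype pools and 2225, 1329 and 1114 in the knockout pools, and wildtype pool 1 was the highest. Ndufs3, Ndufs7, Ndufs8 and Ndufv2, of the iron-sulfur and quinone-binding part or its neighbours, had deviations of 0.67, 1.17, 1.09 and 0.79 in knockout pool 1. Their log2 differences between the genotypes were −0.13 (SE 0.40), −0.35 (SE 0.56), 0.03 (SE 0.47) and −0.04 (SE 0.48). Complex I as a whole had 21 lower and 13 higher means among 34 tested genes, with a median of −0.08. Ndufa1, Ndufb11, Ndufc2, Ndufa12 and Ndufa4 all peaked in knockout pool 1, at 3.1, 3.25, 2.53, 2.18 and 2.33 times the mean of the other 5 pools. Ndufa4 is counted here by its name, although its protein is known as a part of complex IV.

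Complex II, which is also an enzyme of the tricarboxylic acid cycle, had 4 tested genes, all with lower means in knockout and a median of −0.25. Without knockout pool 3 the median was 0.10. Sdha, the flavoprotein gene with the succinate site, had signals of 5673, 4203 and 2634 in wildtype pools 1, 2 and 3, and 4993, 3879 and 2130.2 in knockout pools 1, 2 and 3. Both pools numbered 1 were high and both numbered 3 low, the differences within the numbers were −0.18, −0.11 and −0.30, and the groups overlapped. Sdhb, the iron-sulfur subunit gene, had 2265, 2178 and 1106 in wildtype pools 1, 2 and 3, and 4479, 1013 and 571 in knockout pools 1, 2 and 3. Knockout pool 1 was 3.14 times the mean of the other pools for Sdhb, and 1.35 times for Sdha. The membrane anchor genes Sdhc and Sdhd had ratios of 1.67 and 1.08, and log2 differences of −0.06 (SE 0.37) and −0.30 (SE 0.37).

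In complex III the hinge protein gene Uqcrh had the highest deviation of any member in knockout pool 1, 2.14 on the log2 scale. Its signals were 4989.6, 3807 and 2643 in wildtype pools 1, 2 and 3, and 17389, 2743 and 1463 in knockout pools 1, 2 and 3. Knockout pool 1 was 3.48 times the next highest pool, while knockout pool 2 lay between wildtype pools 2 and 3 and knockout pool 3 was the lowest. Uqcrb, a small subunit next to the ubiquinone sites, had 25735, 26537 and 25532 in the wildtype pools and 69609.6, 19232 and 15134 in the knockout pools. The wildtype pools lay close together, with knockout pool 1 far above and knockout pools 2 and 3 below all of them. Uqcrc1, which encodes a large core protein, averaged 1567 ± 533 in wildtype and 1266 ± 429 in knockout (SD, n = 3). Its partner Uqcrc2 averaged 5308 ± 623 in wildtype and 4923 ± 1953 in knockout (SD, n = 3), so both differed by less than 1 SD. Uqcrfs1, the Rieske iron-sulfur protein gene, was higher in knockout within all 3 numbers, by 0.52, 0.48 and 0.40, with signals of 1348, 1382 and 610.5 in the wildtype pools and 1944, 1948 and 816 in the knockout pools. Its log2 difference of 0.47 (SE 0.45) had an unadjusted limma p of 0.323, and it was 0.10 without wildtype pool 3 and 0.87 without knockout pool 3. Uqcr10, a small accessory subunit gene, had a log2 difference of 0.14 (SE 0.37).

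All 14 tested complex IV genes had higher means in knockout, with a median log2 difference of 0.20, but only 8 of 14 did after quantile normalization, 9 after scaling each array to its median, and 4 without knockout pool 1. Cox4i1, the ubiquitous form of the subunit through which ATP inhibits the enzyme, had signals of 9748, 9034 and 3570.0 in wildtype pools 1, 2 and 3, and 26207, 5620.5 and 2791 in knockout pools 1, 2 and 3. It averaged 7451 ± 3379.8 in wildtype and 11539 ± 12781 in knockout (SD, n = 3), so the SD in knockout exceeded the mean. Cox6b1, a small subunit on the side of cytochrome c, had 8765, 7367 and 5972 in the wildtype pools and 30396, 4905 and 4303 in the knockout pools, and knockout pool 1 was 4.85 times the mean of the other pools. In Cox6a1, Cox6c, Cox7a2 and Cox8a, further small subunits, that ratio was 3.19, 3.33, 2.83 and 2.74. Cox7a2l, a related protein that joins complexes III and IV into supercomplexes, had 4558, 5365 and 5269.6 in the wildtype pools and 8267, 4983 and 4636 in the knockout pools and a ratio of 1.67.

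Complex V had 17 tested genes with a median log2 difference of 0.04, 10 higher and 7 lower. Atp5b, the catalytic beta subunit gene, had signals of 11567, 7284 and 3278 in wildtype pools 1, 2 and 3, and 7019.8, 5872 and 2848 in knockout pools 1, 2 and 3. Wildtype pool 1 was the highest, both pools numbered 3 were the lowest, and knockout pool 1 did not stand out. Atp5a1, the alpha subunit gene, had 7576, 7995 and 4229 in the wildtype pools and 7949, 5235 and 3905 in the knockout pools. Its chosen probe set gave a log2 difference of −0.22 (SE 0.39), and the 2 other probe sets gave −0.45 and 0.61. The genes Atp5g1, Atp5g2 and Atp5g3 encode different precursors of the same mature c subunit, which forms the rotor ring. Their ratios of knockout pool 1 to the mean of the other pools were 3.09, 2.86 and 2.66, and their log2 differences were 0.15 (SE 0.56), 0.18 (SE 0.46) and −0.10 (SE 0.55). Atp5g3 had signals of 16513, 12841 and 8912 in wildtype pools 1, 2 and 3, and 28413, 9235 and 5853 in knockout pools 1, 2 and 3. Atp5pb and Atp5h, of the stator stalk, and Atp5k, of the membrane part, had ratios of 1.99, 3.02 and 3.15.

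**Figure D3:**
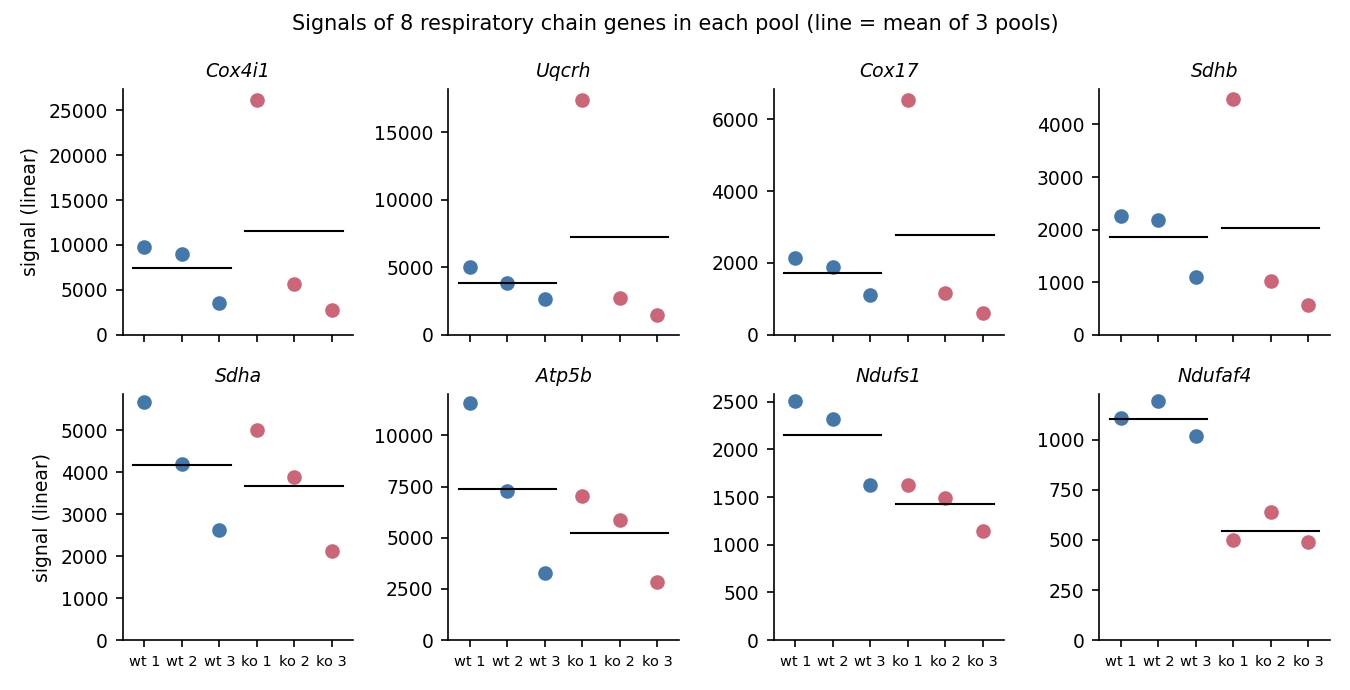
Linear signal (y axis, from 0) of 8 members in each wildtype (wt, blue) and knockout (ko, red) pool, with the mean of 3 pools as a line. Cox4i1, Uqcrh, Cox17 and Sdhb peak in knockout pool 1. Sdha, Atp5b and Ndufs1 do not, and all 3 knockout pools of Ndufaf4 (491 to 638) lie below its wildtype pools (1016 to 1190.4).

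Without knockout pool 1, most members had lower means in knockout, and none passed the threshold. The mean was then lower for 90 of 97 members, with a median of −0.54, against 51.4% of all genes tested and a median of −0.02. By complex the median was −0.66 for I, −0.46 for II, −0.57 for III, −0.29 for IV, −0.52 for V and −0.49 for the assembly factors. In limma 0 of 97 members had an adjusted p under 0.05, against 0.0% of all genes, and the smallest adjusted p was 0.523. At an unadjusted p under 0.05, 28 members had lower means, against 5.35% of all genes, and Cox8c had a higher one (3.73%). Both remaining knockout pools lay below all wildtype pools for 50 members, against 15.3% of all genes. Knockout pool 1 had the highest of the 6 signals for 78 of 97 members, against 32.6% of all genes. Leaving it out therefore lowered the members' knockout means by itself, and the shares over all genes do not correct for that. These counts describe the remaining pools only.

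Ndufb3 and Ndufb5, accessory subunit genes of complex I, had the smallest unadjusted limma p among members without knockout pool 1, 0.00152 and 0.0019. Ndufb3, which the naming rule did not cover and which was chosen after its values were seen, had 4357, 2979 and 3442 in the wildtype pools and 10944, 1346 and 1579 in the knockout pools. Its log2 difference was −0.30 (SE 0.70) with all pools and −1.26 (SE 0.27) without knockout pool 1. Next came Sdhaf4, an assembly factor gene of complex II, with 1433, 1329.9 and 1295 in the wildtype pools and 2699, 657 and 666 in the knockout pools and log2 differences of −0.33 (SE 0.51) and −0.99 (SE 0.23). In each of these the 2 remaining knockout pools lay close together and below every wildtype pool. The pineal markers had a median log2 difference of −0.61 without knockout pool 1, proteasome genes −0.65 and mitochondrial ribosome genes −0.50, so lower values were not limited to the respiratory chain. The part of these other values in the result was not tested.

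**Figure D4:**
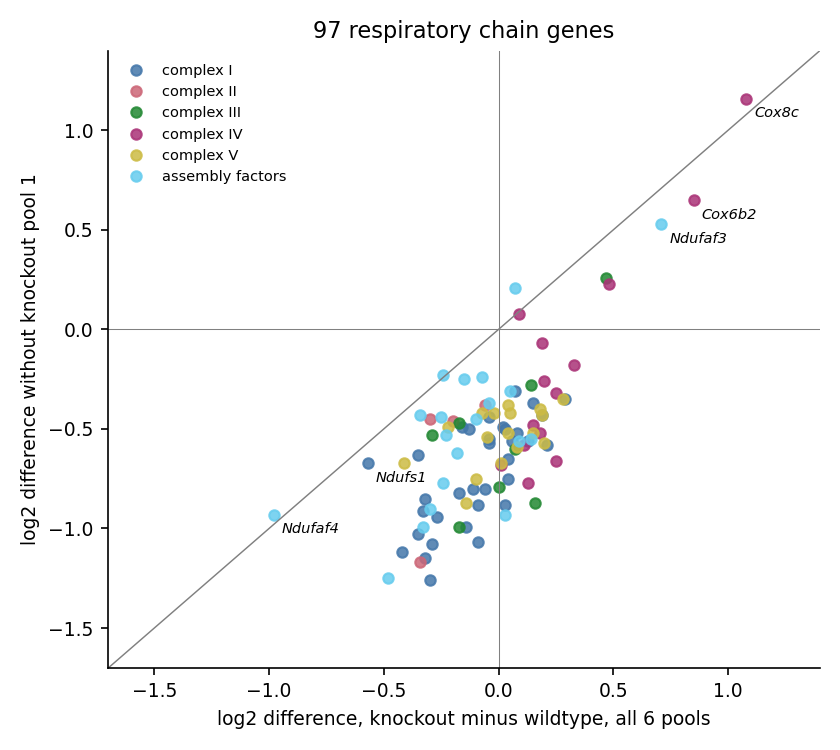
Log2 difference, knockout minus wildtype, of 97 members over all 6 pools (x axis) and without knockout pool 1 (y axis), coloured by complex, with the line of equal values. All but 7 members lie below 0 on the y axis, and Ndufaf4, at −0.98 and −0.93, lies near the line.

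Ndufaf4, which encodes an assembly factor of complex I, was lower in all 3 knockout pools than in any wildtype pool, and its difference moved little with any single pool. Its signals were 1106, 1190.4 and 1016 in wildtype pools 1, 2 and 3, and 501, 638 and 491 in knockout pools 1, 2 and 3. The lowest wildtype signal was above the highest knockout signal, as it was for 2 members, against 4.33% of all genes tested. No member had all knockout signals above all wildtype signals, against 5.77%. Ndufaf4 averaged 1104 ± 87.2 in wildtype and 543 ± 81.9 in knockout (SD, n = 3), and the log2 difference was −0.98 (SE 0.25), with an unadjusted limma p of 0.0039 and an adjusted p of 0.998. By unadjusted p it ranked 16 of 12797 genes. Within numbers 1, 2 and 3 the difference was −1.08, −0.86 and −0.99, and leaving out 1 pool kept it between −1.09 and −0.92. The other probe set of this gene gave −0.70, with signals of 978, 782 and 748 in the wildtype pools and 819, 461 and 316 in the knockout pools, so knockout pool 1 overlapped wildtype there.

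Ndufaf1, also an assembly factor of complex I, was the second member without overlap, with signals of 1011, 774 and 863 in the wildtype pools and 723, 736 and 751 in the knockout pools and a log2 difference of −0.24 (SE 0.25). Cox17, the copper chaperone gene of complex IV, had 2138, 1882 and 1116 in wildtype pools 1, 2 and 3, and 6547, 1172 and 608 in knockout pools 1, 2 and 3. It shared the peak of the small subunits in knockout pool 1, at 1.95 relative to the 6 arrays. Cox15, of heme A synthesis, and Cox18, of membrane insertion, did not share it, at −0.23 and 0.01. Their log2 differences were 0.07 (SE 0.36) and −0.34 (SE 0.28). Cox20, a chaperone gene for a mitochondrially encoded subunit, had 2114, 1793 and 2384 in the wildtype pools and 3199, 1652 and 1384 in the knockout pools. Over the 20 assembly factors 14 means were lower and 6 higher in knockout, with a median of −0.17.

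The isoform genes of complex IV that are known from testis had values of their own. Cox8c had signals of 268, 389 and 753 in wildtype pools 1, 2 and 3, and 850.5, 1578 and 643 in knockout pools 1, 2 and 3. Wildtype pool 3 lay above knockout pool 3, so the groups overlapped, and knockout pool 2 was the highest. The log2 difference was 1.08 (SE 0.43), with an unadjusted limma p of 0.034 and an adjusted p of 0.998, and leaving out wildtype pool 1 or knockout pool 2 gave 0.77 or 0.73. The second probe set had a log2 difference of 0.62, with its highest signal, 398, in knockout pool 1 and 141 in knockout pool 2. Cox6b2 had 209, 473 and 256 in the wildtype pools and 756, 1101 and 202 in the knockout pools, with a log2 difference of 0.85 (SE 0.55) that became 0.39 with knockout pool 2 left out and 1.51 with knockout pool 3 left out. Cox7b2, below the filter, had 40.7, 79 and 18.5 in the wildtype pools and 76.9, 117 and 10.7 in the knockout pools.

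For Cox6b2 and Cox7b2 the highest of 3 pools in each genotype was pool 2, and so it was for the summed signal of the male germ cell markers. Of these 12 markers all were highest in pool 2 among the knockout pools and 8 among the wildtype pools, where Prm2, Tnp2, Cyct and Smcp were highest in pool 3. Prm1, a sperm protamine gene, had 74.1, 720.3 and 68.2 in the wildtype pools and 272, 3856 and 88.1 in the knockout pools, and 7 of the 12 germ cell markers passed the filter. The part of these transcripts in the Cox8c and Cox6b2 values was not tested. Ndufaf3, a further assembly factor gene, had 492, 457 and 181 in the wildtype pools and 766, 1389 and 179 in the knockout pools and was likewise highest in knockout pool 2. Its log2 difference of 0.71 (SE 0.64) was 0.12 with knockout pool 2 left out and 1.47 with knockout pool 3 left out.

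**Figure D5:**
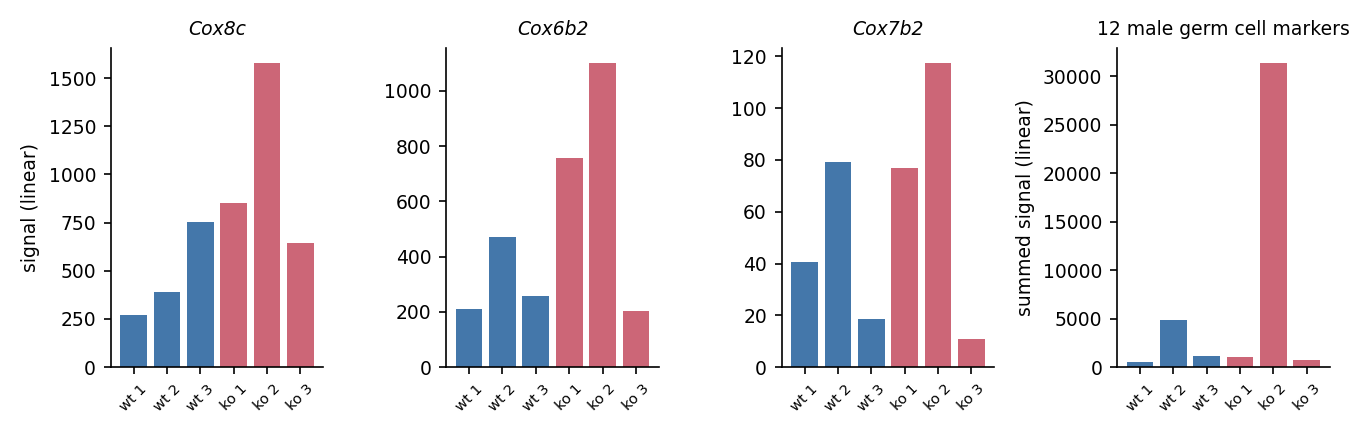
Linear signal of Cox8c, Cox6b2 and Cox7b2, and the summed signal of 12 male germ cell markers (y axes, from 0), in each wildtype (wt, blue) and knockout (ko, red) pool. Knockout pool 2 is the highest in all 4 panels, at 1578, 1101, 117 and 31377. Of that last sum Crisp2 alone makes up 17677.

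Isoform genes known from muscle were dim. Cox6a2 had 115, 269 and 295 in the wildtype pools and 454, 178 and 361 in the knockout pools and a log2 difference of 0.48 (SE 0.41). Cox7a1 had 282, 198 and 116 in the wildtype pools and 565, 123 and 85.3 in the knockout pools, a difference of 0.01 (SE 0.58), and its highest value in knockout pool 1. Cox8b, below the filter, had signals between 7.2 and 64.7. Of 10 skeletal muscle markers 1 passed the filter, and their summed signal ran from 422 to 986. Of 8 heart muscle markers 2 passed, with a summed signal of 525 to 829 in 5 pools and 1519 in knockout pool 1. Their part in the isoform values was not tested. Cox4i2 and Ndufa4l2, isoform genes known from lung and from cells short of oxygen, lay below the filter, at 60.9 to 219 and 20.9 to 55.2.

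The peak in knockout pool 1 was also present in the probe sets that had not been chosen. There were 77 further probe sets above the filter for 49 members, and 62 of them were highest in knockout pool 1, with a median of 1.18 relative to the 6 arrays. Their median log2 difference was 0.11, and −0.45 without knockout pool 1. For 30 of the 49 genes all further probe sets shared the sign of the chosen one. Many of these genes have near-identical processed copies in the genome, and 23 of the 97 chosen probe sets carry the suffix s_at or x_at, which Affymetrix gives to probes that can match several transcripts. The median in knockout pool 1 was 0.90 in the 41 members with a plain at suffix, 1.26 in 33 with a_at, 1.28 in 15 with s_at and 1.04 in 8 with x_at.

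The members' promoters were looked up because nuclear respiratory chain genes are known to share binding motifs of NRF1, of the ETS factor GABP and of YY1. RefSeq promoter windows of assembly GRCm38.p6, from 250 bases before to 50 after a gene's start, matched 84 of the 102 members by gene identifier. The NRF1 motif was searched as GCGC and TGCGC with any 1 base between them, the ETS motif as CCGGAAG and the YY1 motif as AAGATGGCG, on both strands. The NRF1 letters were found in 19 of 84 members (22.6%) and in 5.19% of 27025 genes with a window. The ETS letters were found in 26 members (31.0%) against 9.93%, and the YY1 letters in 8 (9.52%) against 1.64%. At least 1 of the 3 was found in 45 members, 53.6%, against 15.1% of all genes. In this paragraph all genes are the 27025 with a window, a set not limited to the genes tested. Among members over 1 in knockout pool 1, 11 of 48 held the NRF1 letters, 16 the ETS letters and 6 the YY1 letters. In the 33 other tested members with a window the counts were 7, 10 and 2. Of 3 general promoter motifs, the GC box GGGCGG was found in 44 of 84 members (38.2% of all genes), in 20 of those 48 and in 22 of those 33. CCAAT was found in 34 members (41.1% of all genes), in 23 of the 48 and in 9 of the 33, and TATAAA in 10 (15.7%), 6 and 2. These differences were not tested. A match is a description of letters and not a measured site.

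Of the 5 members highest and the 5 lowest in knockout pool 1, 6 had a window. The 4 of them with a match in the 200 bases before the start are shown 5′ to 3′ on the gene's strand, with the matched letters in capitals, to set a promoter of each end side by side. Uqcrh (minus strand, chr4:116075071-116075270) and Cox6b1 (minus strand, chr7:30626115-30626314) were among the highest, and Ndufaf1 (minus strand, chr2:119662835-119663034) and Ndufaf4 (plus strand, chr4:24897883-24898082) among the lowest. The reference is of strain C57BL/6J.
Uqcrh: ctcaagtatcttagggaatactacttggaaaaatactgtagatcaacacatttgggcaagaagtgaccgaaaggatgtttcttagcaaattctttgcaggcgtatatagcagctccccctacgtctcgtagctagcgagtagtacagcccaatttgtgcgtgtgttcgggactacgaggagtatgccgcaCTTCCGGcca
Cox6b1: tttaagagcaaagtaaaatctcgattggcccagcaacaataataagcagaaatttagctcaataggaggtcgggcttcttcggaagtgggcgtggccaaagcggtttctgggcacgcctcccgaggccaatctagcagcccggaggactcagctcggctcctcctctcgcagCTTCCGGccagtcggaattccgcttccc
Ndufaf1: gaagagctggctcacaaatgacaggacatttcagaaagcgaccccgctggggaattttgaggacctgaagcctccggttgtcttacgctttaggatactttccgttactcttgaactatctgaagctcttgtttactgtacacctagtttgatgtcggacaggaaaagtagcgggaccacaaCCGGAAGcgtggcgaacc
Ndufaf4: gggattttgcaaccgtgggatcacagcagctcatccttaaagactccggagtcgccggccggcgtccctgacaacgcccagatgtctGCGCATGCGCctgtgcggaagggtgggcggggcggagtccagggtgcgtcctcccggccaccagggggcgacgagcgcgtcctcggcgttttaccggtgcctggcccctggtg
The first 3 carry the ETS letters, in reverse in Uqcrh and Cox6b1, and Ndufaf4 carries the NRF1 letters. The ETS letters lay 10 to 4 bases before the start in Uqcrh, 28 to 22 in Cox6b1 and 18 to 12 in Ndufaf1. These windows were shown because they held a match, so they cannot compare the ends. Of the windows not shown, that of Ndufa13, among the highest, held no match. That of Cox15, among the lowest, held the ETS letters 7 to 13 bases after the start.

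Other mitochondrial and housekeeping genes were compared through lists, and no gene of these lists passed the threshold. Genes of the tricarboxylic acid cycle and pyruvate dehydrogenase had 15 lower means among 16 tested, with a median difference of −0.32, and a median of only 0.21 in knockout pool 1. Dld, the dehydrogenase subunit gene shared by pyruvate and oxoglutarate dehydrogenase, had 2064, 1695 and 1392 in the wildtype pools and 563, 985 and 882 in the knockout pools and a log2 difference of −1.07 (SE 0.31), with an unadjusted limma p of 0.00796. Idh3a, of isocitrate dehydrogenase, had 2441, 1902 and 1301 in the wildtype pools and 926, 991 and 819 in the knockout pools and −0.97 (SE 0.31). Both were low in knockout pool 1, unlike the small subunits of the respiratory chain.

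Cytochrome c itself, Cycs, had 7904, 7014 and 7113 in the wildtype pools and 18849.9, 3113 and 2829.5 in the knockout pools, with the peak in knockout pool 1. Its log2 difference was −0.41 (SE 0.65), and −1.29 (SE 0.23) without that pool. The list of electron and nucleotide carriers, to which Cycs belongs, had a median of 0.41 in knockout pool 1, mitochondrial import genes 0.21, and mitochondrial ribosome genes 0.74. Cytosolic ribosome genes reached 1.16, beside 1.14 for the members, proteasome genes 0.67 and glycolysis genes 0.54. Assembly factors outside the member rule had 0.15 and mitochondrial antioxidant and uncoupling genes 0.72. Regulators of mitochondrial biogenesis and genome upkeep had 0.04, with 8 higher and 8 lower means among 16 tested. Among these, Nrf1 averaged 366 ± 32.5 in wildtype and 406 ± 55.9 in knockout (SD, n = 3). Its log2 difference was 0.13 (SE 0.24). Tfam, the packaging factor of mitochondrial DNA, averaged 1278 ± 247 in wildtype and 964 ± 139 in knockout (SD, n = 3), and the coactivator gene Ppargc1a 411 ± 335 in wildtype and 597 ± 157 in knockout (SD, n = 3). Their log2 differences were −0.39 (SE 0.28) and 0.72 (SE 0.47). In the lists of carriers and import genes 12 of 15 and 13 of 22 means were lower in knockout, in that of mitochondrial ribosome genes 48 of 76, and in that of cytosolic ribosome genes 7 of 44. The counts of lower means were 30 of 37 for the proteasome, 9 of 14 for glycolysis, 11 of 16 for the further assembly factors and 5 of 9 for antioxidant and uncoupling genes.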

How the data were processed

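Pineal RNA of 6 pools was measured on 1 array each. The deposited table holds a linear fluorescence intensity for each of 45037 probe sets, made by the authors with GCOS per the submitters' processing notes. For the signal algorithm nothing is named: not given in the sources used here. Over these deposited intensities the 2% trimmed means lay between 499.5 and 499.96, so the authors had scaled each array. Detection calls and scanner files were not analysed here. Values were used as log2(signal + 38.6), the offset being the 20th percentile of all values, which understates changes of dim genes. Probe sets were named by the platform annotation, 34945 with 1 gene, 932 with several and 9160 with none. The identifiers of 34741 matched RefSeq (GRCm38.p6). The filter left 12797 genes for the fit.

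Genotypes were compared with limma 3.58.1 (R 4.3.3) (lmFit, eBayes with trend, two-sided, Benjamini-Hochberg over all genes tested). On simulated data of 12797 genes, 46 of 50 genes lowered by 4 and 25 of 50 lowered by 2 on the log2 scale were recovered, and 48 of 50 raised by 4 and 38 of 50 raised by 2. The noise was drawn independently for each gene and pool, so pool effects shared across genes were not simulated. Both sizes exceed every member difference, −0.98 to 1.08, so recovery at the members' sizes was not tested. The smallest p of an exact permutation test is 0.1 with 3 pools against 3, and none was run. Precision is limited by the number of arrays, with a median SE of 0.34 over all genes tested and 0.5 over the members. The series' design text calls the pools separate biological samplings. Same-numbered pools share a date in the labels, and their deviations correlated across genes (r = 0.32, 0.25 and 0.36 for the 3 numbers), so a fit with the number as a block was an alternative. Others left out single pools or both pools numbered 1, or changed the offset, normalization, filter, probe sets and variance model.

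The members and lists were chosen with earlier results of these data known. The naming rule took, for each complex and the assembly factors, up to 3 genes of highest level and 4 of smallest p, core and isoform genes, and the 5 highest and 5 lowest in knockout pool 1. It named 54 members; of other lists it took up to 2 genes of smallest p and Ppargc1a, Nrf1, Tfam and Cycs.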

Additional observations from a re-analysis of the deposited data

How the results depend on the processing

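No respiratory chain gene was called under any of the 15 alternatives. The Neurod1 difference, the 1 called, kept its direction, with log2 values between −5.04 and −4.13 when 1 pool was left out, and 0 genes were then called without knockout pool 1 or any 1 wildtype pool and 1 gene without knockout pool 2 or 3. With an offset of 0 it was −4.87 (limma adjusted p = 0.0674) and 0 genes were called. Without both pools numbered 1 it was −4.80 (0.813), again with 0 genes called. Adding the replicate number as a block gave −4.67 with 1 gene called, and changed no call. The block moved the unadjusted p under 0.05 from 428 to 798 genes, and from 2 to 3 members, which then included Ndufs1. Wherever it was included, knockout pool 1 kept the highest median of the members, between 0.96 with quantile normalization and 1.18 with an offset of 0. Scaling each array to its median moved the median difference of all genes from 0.03 to −0.13 and that of the members to −0.19. Of 50 named members tested, 20 changed the sign of their difference without both pools numbered 1, 19 without knockout pool 1, 14 without knockout pool 3 and 13 with median scaling. The signals of Cox7b2 and Cox8b lie near the offset, so their differences are understated on the log2 scale.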
